A study of Mus musculus with 10 samples.

Results

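The libraries described here hold the RNA of wild-type (WT) mouse group 2 innate lymphoid cells (ILC2) sorted from the lung after papain-induced inflammation. They are the 5 count columns that carry the WT genotype, of 10 libraries in the series. The other 5 come from c-Maf KO mice and enter no comparison. The mice were C57BL/6, and WT and KO animals were littermates housed together. Cells were sorted as lin-CD90.2+ST2+/-KLRG1+/-, so the gate required CD90.2 and neither required nor barred ST2 or KLRG1. The age and sex of the mice, the papain dose and its timing, and any allele shared by WT and KO littermates are not stated in the labels used here. The labels do not say whether each library is a separate mouse, so the spread below is the spread between libraries, which may be in part technical. Libraries are called 1 to 5 in deposit order, and the numbers carry no rank.

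ILC2 are tissue-resident lymphocytes without a rearranged antigen receptor. They respond to epithelial alarmins such as IL-33, thymic stromal lymphopoietin and IL-25, and to lipid mediators and neuropeptides, by making type 2 cytokines. Papain is a plant cysteine protease that injures the airway epithelium and is widely used to bring about a type 2 response in the mouse lung. GATA3 and RORα are the transcription factors best known for specifying the lineage, and c-Maf, encoded by Maf, is a factor of activated lymphocytes that the series deletes in its other group.

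Each library held 21400938 to 24489987 counts in genes, and 8987 (library 1) to 11284 (library 4) genes had more than 3 counts. In all, 7630 genes passed that limit in every library. Levels are given as CPM (counts per 1000000), scaled by edgeR's trimmed mean of M-values (TMM) over the 5 libraries, with factors of 0.824 to 1.15. The CPM of a gene also grows with its length, so an order by CPM is one of read number, and levels of different genes are compared as CPM per kb of merged exons. Across the 4522 genes of mean 20 CPM or more, the Spearman correlation between libraries was 0.594 (libraries 1 and 3) to 0.807 (libraries 3 and 4). Every pair differed far beyond sampling noise, with a chi-square of 259 or more per degree of freedom, so none was treated as a library deposited repeatedly. The labels name no batch. With 1 group no groups are compared and no p-value is given.

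The label matched the marker genes. Gata3, on chromosome 2 at 9857078 to 9890034 of GRCm38, stood at 542, 563, 235, 300.1 and 431 CPM in libraries 1 to 5 (mean 414 ± 145 CPM, SD, n = 5). Rora, on chromosome 9 at 68653786 to 69388246, stood at 2281, 2392, 1214, 1236 and 1787 CPM (mean 1782 ± 557 CPM, SD). For both factors libraries 3 and 4 gave the lowest levels, below the other 3. Il1rl1, the gene of ST2 (the receptor for IL-33), which lies on chromosome 1 at 40429570 to 40465415, was far more even, at 809, 1037, 995, 839 and 864 CPM. Il7r, the IL-7 receptor α chain on chromosome 15, at 9505788 to 9530176, ranged from 624 CPM in library 4 to 1368 CPM in library 1. Thy1, which encodes the CD90 antigen used in the gate, lies on chromosome 9 at 44043384 to 44048579 and ranged from 527 to 773 CPM. Its presence follows from the sort. Of the 28 ILC2 identity genes that could be measured, 25 had more than 3 counts in all 5 libraries, against 36.3% of the 19342 nuclear protein-coding genes that could be measured. A mean of 20 CPM or more was reached by 23 of the 28, or 82.1%, against 22.4% of the same background. The list was chosen as ILC2 genes, so this share checks the label and is not a finding.

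Some well-known ILC2 genes could not be read. The deposited counting left nearly every gene that lies within another gene's span at 0: of 690 genes with all exon bases inside another gene's span but outside its exons, 98.8% had no count in any library, against 42.9% of 14128 genes free of overlap. Genes with 50% or more of their exon bases inside another gene's span are therefore left out of all counts below. Tcf7, encoding the progenitor factor TCF-1, has 100% of its exon bases in such overlap and held at most 0.445 CPM. Il2rg, Il17rb and Cxcr6 were left out on the same ground, and Csf2, encoding GM-CSF, has 58.9% overlap, so its mean of 4.47 CPM is not a usable level. Ptgdr2, which encodes the prostaglandin D2 receptor CRTH2, has 39.0% of its exon bases in overlap and had 0 counts in all 5 libraries. Gata3 (25.7%), Maf (26.2%) and Il5 (43.3%) are overlapped in part, and their levels may be too low.

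Maf itself, on chromosome 8 at 115682942 to 115707794, was measured at 164, 152, 71.4, 63.4 and 101 CPM in libraries 1 to 5 (mean 111 ± 46.0 CPM, SD). Per kb of exon this is 13.4 CPM, against 104 CPM per kb for Gata3 and 136 CPM per kb for Rora. The lowest Maf levels were in libraries 3 and 4, as for Gata3 and Rora.

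Of 187 listed and measured transcription factors, 125 (66.8%) had a mean of 20 CPM or more, against 22.4% of all nuclear coding genes. This list and those below were chosen with earlier results of these data known. A share above the background is therefore a description of the list and not a finding. The factor with the most reads was Bhlhe40, a basic helix-loop-helix repressor of activated lymphocytes, at 2326, 3081, 1282, 1079 and 2220 CPM. It was also first per kb of exon, at 425 ± 174 CPM per kb. Next per kb came the orphan nuclear receptors Nr4a3, at 277 ± 130 CPM per kb, and Nr4a1, at 240 ± 96.5 CPM per kb, both immediate early genes of antigen-receptor and calcium signalling. The ranges over libraries of these 3 overlapped, from 229 to 655, 139 to 453 and 164 to 397 CPM per kb. Within each library, however, Bhlhe40 was the highest of the 3. The order of Nr4a3 and Nr4a1 changed between libraries and is not resolved by 5 libraries. Hlf followed at 180.0 ± 38.6 CPM per kb. Hlf encodes a PAR-domain leucine zipper factor best known from blood stem cells and from clock output, and it ranged from 857 to 1584 CPM.

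The 20 factors with the most reads included 2 AP-1 genes, Fosl2 and Fosb, and the NF-κB gene Nfkb1. Fosl2, encoding the AP-1 subunit FRA2, stood at 1271, 2649, 611, 534 and 2276 CPM. Fosb stood at 1373, 1156, 709, 332 and 895 CPM. Nfkb1, which encodes the p105/p50 NF-κB subunit, stood at 2098, 1789, 1102, 821 and 1448 CPM. In each of these 3 genes libraries 3 and 4 held the lowest levels. Fos, named after its values were seen, did not follow that order, with 517 CPM in library 3 and 419 CPM in library 4 above the 245 to 344 CPM of the others.

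Several others of the 20 are known from lymphocytes. Ikzf1, encoding Ikaros, averaged 907 ± 345 CPM, and its family member Ikzf3, encoding Aiolos, 436 ± 101 CPM. Ets1, which supports ILC2 development, averaged 813 ± 184 CPM, and Runx1 728 ± 283 CPM. Rbpj, the DNA-binding partner of Notch, averaged 694 ± 124 CPM and was highest in library 3. Nr3c1, encoding the glucocorticoid receptor, averaged 510 ± 187 CPM and was highest in library 2, at 831 CPM. Irf4, a factor of lymphocyte activation, stood between 268 and 505 CPM. Pparg, a lipid-sensing receptor used by lung ILC2, Id2, the inhibitor of E proteins that all ILC need, and Tox were also present, and the former pair are named after their values were seen. Pparg averaged 316 ± 95.0 CPM and Id2 178 ± 82.6 CPM. Tox averaged 442 ± 189 CPM. Id2 was highest in libraries 3 and 4, at 299.6 and 223 CPM, where Tox was lowest, at 228 and 242 CPM.

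Tbx21, encoding T-bet, the master factor of type 1 lymphocytes, had 0 counts in all 5 libraries, which allows a level of up to 0.0255 CPM over the 5 (3 counts, for counting error only). Zbtb16, encoding the ILC precursor factor PLZF and named after its values were seen, was at 17.95 and 36.5 CPM in libraries 1 and 5 and at or below 4.38 CPM in the others.

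**Figure D1:**
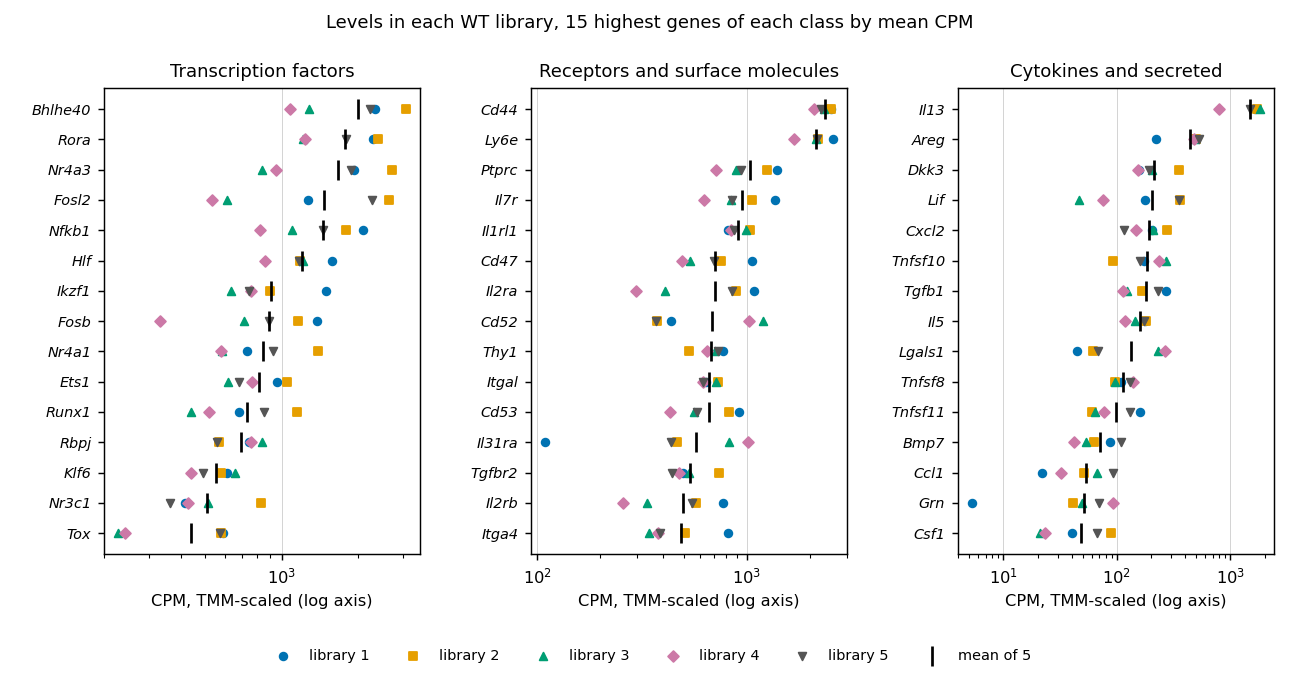
Level in each of the 5 WT libraries of the 15 highest transcription factors, receptors and cytokines by mean CPM (log axes, TMM-scaled CPM, 1 symbol per library, black bar for the mean). Library 1 stands apart for Il31ra (109 CPM against 433 to 1017) and Areg (219 CPM against 475 to 529), and library 4 for Il13 (792 CPM against 1479 to 1808).

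Among 182 listed and measured receptors and surface molecules, 84 (46.2%) had a mean of 20 CPM or more, again against 22.4%. Cd44, the hyaluronan receptor of activated lymphocytes, had the most reads and was nearly level over the libraries, at 2539, 2537, 2340, 2092 and 2251 CPM. Per kb of exon, Cd52 and Ly6e, small glycolipid-anchored surface proteins, came first, at 572 ± 337 and 568 ± 84.2 CPM per kb. Cd53, a leukocyte tetraspanin, followed at 380 ± 116 CPM per kb and Cd44 at 347 ± 28.3 CPM per kb. The spread of Cd52 came from libraries 3 and 4, which held 1201 and 1023 CPM against 368 to 433 CPM in the others. So did its first place: in each of the other libraries Cd52 lay below Ly6e, Cd53 and Cd44 per kb.

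Of 48 measured cytokine receptor genes, 25 (52.1%) had a mean of 20 CPM or more, against the same 22.4%. Il2ra, encoding CD25, stood at 1080, 887, 408, 295 and 849 CPM, and libraries 3 and 4 lay below the rest. Il2rb stood at 769, 572, 335, 257 and 547 CPM, with the same pair lowest. Tgfbr2, a TGF-β receptor subunit, averaged 535 ± 116 CPM. Kit, the stem cell factor receptor that marks some ILC2, averaged 320 ± 85.7 CPM. The IL-31 receptor chain gene Il31ra went the other way: it stood at 109, 467, 821, 1017 and 433 CPM, with libraries 3 and 4 on top and library 1 far below all others. Its partner gene Osmr had 0 counts in all 5 libraries and is named after its values were seen. Receptor genes for IL-18 and for the IL-17 family were also present, and are named after their values were seen: Il18r1 averaged 118 ± 61.8 CPM, Il18rap 217 ± 77.2 CPM and Il17ra 87.8 ± 39.8 CPM.

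Costimulatory and inhibitory receptors were represented by 29 of 61 measured genes at a mean of 20 CPM or more (47.5%, against 22.4%). Icos, a costimulator that supports ILC2 survival, averaged 438 ± 170 CPM and was highest in library 2. Klrg1, a C-type lectin of mature ILC2 and part of the gate, stood at 469, 417, 252, 273 and 249 CPM. The checkpoint genes Pdcd1 and Ctla4, named after their values were seen, averaged 191 ± 62.3 and 132 ± 54.3 CPM and were highest in library 1. Cd69, an early activation and tissue-retention marker likewise named afterwards, lay within 189 to 240 CPM in all 5 libraries.

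Of 35 measured chemokine receptor and adhesion genes, 17 (48.6%, against 22.4%) had a mean of 20 CPM or more. Cd44, which is on this list too, was the highest of them per kb of exon, followed by the chemokine receptor gene Ccr8 at 261 CPM per kb and the integrin genes Itgb7 at 151 and Itgal at 101 CPM per kb, with the selectin ligand gene Selplg and Cxcr4 between the last 2, at 106 and 103 CPM per kb. Itgal, encoding the αL chain of LFA-1, stood at 641, 725, 714, 619 and 615 CPM and ranked among the least variable genes. Itga4 averaged 486 ± 195 CPM, and Itgb7, its partner in gut homing, 417 ± 156 CPM with its top level in library 3. Of the chemokine receptors, Ccr2 averaged 324 ± 75.5 CPM and Ccr8, a receptor for CCL1, 306 ± 57.2 CPM. Per kb of exon, Ccr2 stood at 48.0 CPM per kb. Ccl1, the gene for that CCR8 ligand, was itself present at 21.7, 51.6, 66.7, 32.4 and 92.6 CPM.

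Receptors for lipids and neuropeptides are those through which nerves and mast cells act on ILC2. Of 40 measured, 15 reached 20 CPM (37.5%, against 22.4%), 19 had more than 3 counts in all 5 libraries (against 36.3% of the same background), 9 had more than 3 counts in some libraries only and 11 had no count at all. Nmur1, the neuromedin U receptor, stood at 21.9, 82.9, 23.0, 53.5 and 65.5 CPM. The calcitonin gene-related peptide receptor genes Calcrl and Ramp1, the VIP receptor gene Vipr2, the leukotriene receptor genes Cysltr1 and Cysltr2 and the prostacyclin receptor gene Ptgir are named after their values were seen. Calcrl averaged 265 ± 79.3 CPM and Ramp1 140.1 ± 76.2 CPM. Vipr2 ranged from 27.1 CPM in library 2 to 185 CPM in library 3, while Ptgir kept to 111 to 163 CPM. Cysltr1 averaged 82.7 ± 25.7 CPM and Cysltr2 130.3 ± 44.9 CPM. Calca, which encodes calcitonin and its related peptide, was also found in every library, at 16.8 to 45.3 CPM, so both the peptide gene and its receptor genes were measured in these libraries.

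Of 99 measured cytokines, chemokines and secreted mediators, 23 (23.2%) had a mean of 20 CPM or more, close to the 22.4% of all nuclear coding genes, and 15 held that level in every library. No count at all was found for 27, among them Ifng and Il25, both named after their values were seen. Il13, the ILC2 effector cytokine of mucus production and airway hyperreactivity, had the most reads of the list, at 1647, 1704, 1808, 792 and 1479 CPM. Library 4 lay at 792 CPM, apart from the other 4. Per kb of exon Il13 reached 1233 ± 337 CPM per kb, the eighth highest of the measured nuclear coding genes. Its lowest library, at 657 CPM per kb, exceeded the highest level of the next cytokine, Areg, at 436 CPM per kb.

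The type 2 cytokine genes lie together on chromosome 11 and differed widely. Il4, at 53602982 to 53618669 of GRCm38, was measured at 33.1, 40.5, 6.83, 19.9 and 6.89 CPM, or 17.5 CPM per kb on average. Il13, at 53631324 to 53634702, had 1233 CPM per kb. Il5, the eosinophil growth factor gene at 53720794 to 53725106, was even across libraries at 178, 179, 144, 118 and 174 CPM, or 103 ± 17.7 CPM per kb. All 3 were lower in library 4 than in libraries 1 and 2. Il9 had 15.9 CPM in library 1, 0.438 CPM in library 2 and 0 counts in the others. Il10 reached 17.8 CPM in library 3 and 2.39 and 3.25 CPM in libraries 2 and 4, with 0 counts in libraries 1 and 5.

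Areg, encoding the epithelial repair factor amphiregulin, was second among cytokines by CPM and per kb. It stood at 219, 501, 489, 475 and 529 CPM. Library 1 lay below the other 4, which were close together. Il13 and Areg are the cytokines on which this description turns, and the 250 bases before their starts are shown so that the elements named below can be seen in place. The Il13 window is chr11:53634703-53634952, minus strand, and the Areg window chr5:91139349-91139598, plus strand, both from RefSeq on GRCm38.p6 and written 5′ to 3′. Capitals mark AGATAA, a core that GATA factors recognise, and TGACGTCA, the full cAMP response element.
Il13: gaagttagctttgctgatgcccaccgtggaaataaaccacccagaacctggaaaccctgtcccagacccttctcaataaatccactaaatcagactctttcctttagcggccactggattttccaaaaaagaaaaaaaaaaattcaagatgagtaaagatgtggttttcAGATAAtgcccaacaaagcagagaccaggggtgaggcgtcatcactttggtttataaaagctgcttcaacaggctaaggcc
Areg: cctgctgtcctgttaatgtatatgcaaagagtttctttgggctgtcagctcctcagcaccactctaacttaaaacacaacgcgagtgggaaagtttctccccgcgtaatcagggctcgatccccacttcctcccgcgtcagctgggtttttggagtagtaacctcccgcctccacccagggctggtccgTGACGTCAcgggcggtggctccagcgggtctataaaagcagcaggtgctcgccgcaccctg

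The Il13 window was searched on both strands for AGATAA and TGATAA and held AGATAA only, 81 to 76 bases before the start. Among 32851 mouse promoter windows of the same length, 16.6% held either core, and 9.99% held AGATAA. The Areg window was searched for TGACGTCA, which reads the same on both strands, and held it 61 to 54 bases before the start. Of the same windows, 1.55% held this element. These are matches of letters and not measured binding.

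Other secreted factors had fewer reads. Dkk3, a secreted Wnt-pathway modulator, averaged 211 ± 82.2 CPM. Lif, an IL-6 family cytokine, split the libraries: it stood at 177, 357, 46.6, 75.5 and 353 CPM. The neutrophil chemokine gene Cxcl2 averaged 191 ± 62.0 CPM and the TNF family genes Tnfsf10, encoding TRAIL, and Tnfsf11, encoding RANKL, 185 ± 68.3 and 98.5 ± 44.5 CPM. Tgfb1 averaged 181 ± 68.5 CPM and Bmp7 70.2 ± 26.7 CPM. Lgals1, encoding galectin-1, had 230.2 and 263 CPM in libraries 3 and 4 against 44.1 to 68.2 CPM elsewhere, the reverse of Lif. Grn, encoding progranulin, was the cytokine-list gene that met the limit for strong variation given below, at 5.30 CPM in library 1 and 41.4 to 91.8 CPM in the others.

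Of 38 immediate early genes measured, 32 (84.2%) had a mean of 20 CPM or more, against 22.4% of all nuclear coding genes. Tnfaip3, which encodes the NF-κB inhibitor A20, stood at 3156, 3164, 2166, 2070 and 2030 CPM. Rgs2 and Dusp1, feedback regulators of G-protein and MAP kinase signalling, averaged 1134 ± 216 and 1120 ± 302 CPM. The heat shock and dissociation list had 13 of 17 genes (76.5%, against 22.4%) at 20 CPM or more, with most reads in Hspa8 at 663 to 836 CPM. Its inducible member Hspa1b, named after its values were seen, was low at 3.84 to 19.8 CPM.

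Arg1, which encodes arginase-1, an enzyme that supports ILC2 glycolysis and proliferation, was at 1086, 1074, 1034, 974 and 983 CPM. Of 22 glycolysis and hypoxia genes 13 (59.1%, against 22.4% of all nuclear coding genes) reached 20 CPM, with most reads in Gapdh at 544 to 1710 CPM and Ldha at 544 to 903 CPM. Gapdh was highest in library 1. Of 40 proliferation genes 10 (25%) reached 20 CPM, a share near that 22.4%. Mki67, the Ki-67 gene, stood at 57.9, 84.7, 31.8, 94.5 and 117 CPM. Top2a, a mitotic topoisomerase gene, was at 7.26 CPM in library 1 and 47.4 to 133 CPM in the others. The interferon-stimulated list had 13 of 42 genes (31.0%, against 22.4%) at 20 CPM or more. Most of its reads were in Ly6e and Lgals3bp, at means of 2147 and 417 CPM, followed by Trim30a at 156 CPM.

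The most abundant RNAs were mitochondrial. The 10 genes with the largest shares took 46.4, 37.6, 47.3, 41.0 and 35.6% of all counts in libraries 1 to 5. mt-Rnr2, the large mitochondrial ribosomal RNA, averaged 24.95% of counts, and mt-Rnr1, the small one, 11.1%. The level of mt-Rnr1 varied more than that of mt-Rnr2: it stood at 173400, 62610, 155000, 127800 and 52700 CPM, so that libraries 2 and 5 lay below the rest. Mitochondrial mRNA was led by mt-Co1, a subunit of cytochrome c oxidase, at 1.51% of counts. Of 13 such mRNA genes, 7 had more than 3 counts in all 5 libraries. Another 5 passed that limit in none, and 3 of these had no count. None of the 13 was left out for overlap, and why some lacked counts was not tested. The order among mitochondrial mRNAs thus covers only those that were counted. Nuclear coding genes took 52.1 to 63.7% of counts. The kit was one for total RNA.

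**Figure D2:**
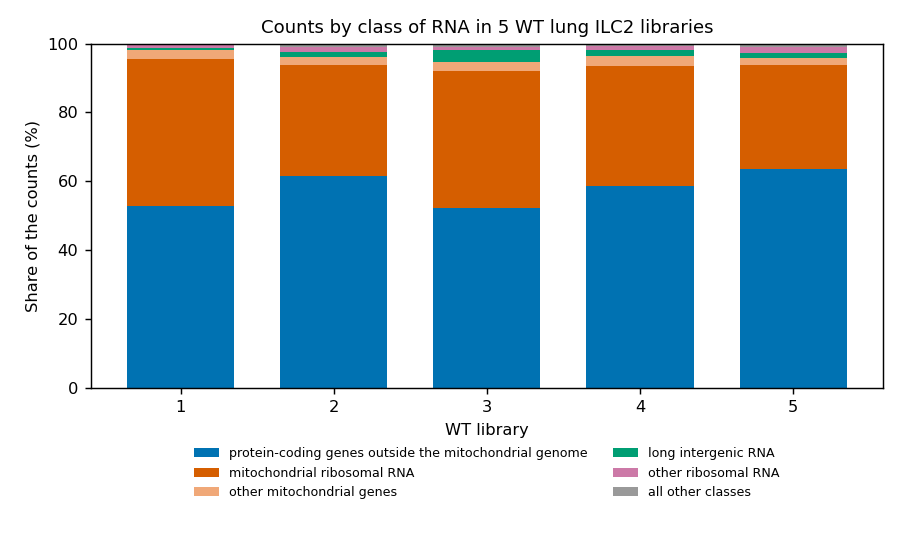
Share of all counts (%) by class of RNA in each of the 5 WT libraries, as stacked bars from 0 to 100. Nuclear protein-coding genes took 52.1 to 63.7% and mitochondrial ribosomal RNA 30.1 to 42.5%.

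Some other genes of high count are not clear coding signals. CT010467.1, annotated as ribosomal RNA, and its neighbour Gm26917 on chromosome 17 averaged 11790 and 7915 CPM, and CT010467.1 has 73.9% overlap. Gm26917 stood at 1255, 3887, 21940, 8885 and 3606 CPM. The short gene Mir6236 and the wholly overlapped Gm26561 had the same library at the top and library 1 at the bottom: Mir6236 ranged from 898 to 5842 CPM and Gm26561 from 1118 to 6394 CPM. Zc3h7a, encoding a zinc finger protein, also ranged from 1179 CPM in library 1 to 5874 CPM in library 3, and Jarid2, encoding a Polycomb partner, from 1306 to 4204 CPM with the same ends. Where within these genes the reads lay was not measured, so their counts are not read as levels of the protein-coding RNA.

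Among nuclear coding genes the most abundant by count were Gphn, Actb, Eef1a1 and Ahnak. Per kb of exon the order of means was led by Rplp1 (2098 CPM per kb), Actb (1634), Gphn (1577), Tmsb4x (1494), Tagln2 (1446), Sh3bgrl3 (1442) and Eef1a1 (1425), followed by Il13. The first place of Rplp1 came from libraries 3 and 4, at 2627 and 1779 CPM. In libraries 1, 2 and 5 it had 210, 327 and 292 CPM and lay below Actb and Il13 per kb. Actb, Tmsb4x and Tagln2 encode actin and actin-binding proteins, Eef1a1 a translation elongation factor, and Rplp1 a ribosomal stalk protein. Gphn, encoding the scaffold gephyrin, stood at 8987 CPM in library 3 and at 4699 to 5427 CPM in the others. Its top library was also that of Gm26917, Zc3h7a and Jarid2. Where within Gphn the reads lay was not measured either, so its place in these orders is not read as that of its protein-coding RNA.

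Some groups of genes shared one order of the libraries. Ribosomal protein genes, a list added after the data were seen, took 3.81, 4.40, 11.4, 11.3 and 3.99% of the nuclear coding counts. Of 68 that could be measured, 62 (91.2%) had their 2 highest levels in libraries 3 and 4, against 11.9% of the 2407 genes of mean 50 CPM or more. With library size alone as the scale the count was 60 of 68. Rplp1 stood at 2627 and 1779 CPM there and at 210 to 327 CPM elsewhere. Rplp2 stood at 2982 and 2001 CPM there and at 462 to 535 CPM elsewhere. The smallest spread among the named ones was that of Rpl4, at 1238 to 1797 CPM.

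Part of the genes outside that family had the same pair on top. Gpx1, encoding glutathione peroxidase, had 7.62, 24.3, 123, 151 and 24.5 CPM, and Cd3g, encoding the CD3γ chain, 7.51, 18.3, 102, 115 and 17.4 CPM. Of 127 such genes with exons of 2 kb or less, 46 (36.2%) had their 2 highest levels in libraries 3 and 4, and of 2212 with longer exons 178 (8.05%). Most short genes did not, among them Il13, Areg, Il5 and Ccr8. The 286 genes with that pair on top had a median exon length of 3.27 kb and a median span of 11.5 kb, against 6.28 and 48.2 kb over all 2407. Without the ribosomal protein list 224 remained, with medians of 3.82 and 16.5 kb. The 595 genes (24.7% of the 2407) with their 2 highest levels in libraries 1 and 2 had medians of 7.09 and 71.7 kb. That count depended on the scale: with library size alone 337 genes had that pair on top, and those of libraries 2 and 5 rose in number from 339 to 597. Gene length thus moved with the pattern, and its part in it was not tested. Within the genes of libraries 3 and 4 the median GC content was 49.0%, or 47.9% without the ribosomal protein list, against 47.9% over all.

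Transcription factors lay on the other side. Of 104 at a mean of 50 CPM or more, 75 (72.1%) had both of their highest levels among libraries 1, 2 and 5, against 54.8% of all genes at that level. Gata3, Rora, Maf, Bhlhe40, Nr4a3, Fosl2 and Nfkb1 are among them. Which 2 of the 3 were on top depended on the scale: Gata3, Rora and Nr4a3 were highest in library 2 on either scale, followed by library 1 with TMM and by library 5 with library size. With library size alone, 73 of 104 had both of their highest levels in those 3 libraries. Receptors were nearer to all genes, at 39 of 70 (55.7%), as were immediate early genes, at 15 of 27 (55.6%).

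Genes were called strongly variable where the highest library exceeded the lowest more than 8-fold on the log2(CPM + 1) scale, at a mean of 50 CPM or more. This held for 103 of 2407 genes (4.28%), of which 51 were highest in library 1, where 38.0% of all 2407 were. With library size alone 29 of 99 were highest in library 1, where 20.4% of all genes at that level were, and library 5 was then the most frequent, at 28.1%. Without library 1 the count of strongly variable genes was 42. Transcription factors contributed 3 of 104 (Satb1, Bach2 and E2f2), receptors 4 of 70 (Il31ra, Cd28, Cd3g and Ramp3) and secreted factors 1 of 14 (Grn). Rnf130, at 8.03-fold, lay just inside the limit and Fbxw11, at 7.98-fold, just outside. Satb1, a chromatin organiser, stood at 214, 371, 69.7, 29.2 and 117 CPM, and Bach2, a repressor of effector differentiation, at 184, 217, 44.9, 19.1 and 218 CPM. Cd28, the T cell costimulator, stood at 72.6, 172, 36.6, 18.5 and 149 CPM. These 3 again had libraries 3 and 4 lowest.

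**Figure D3:**
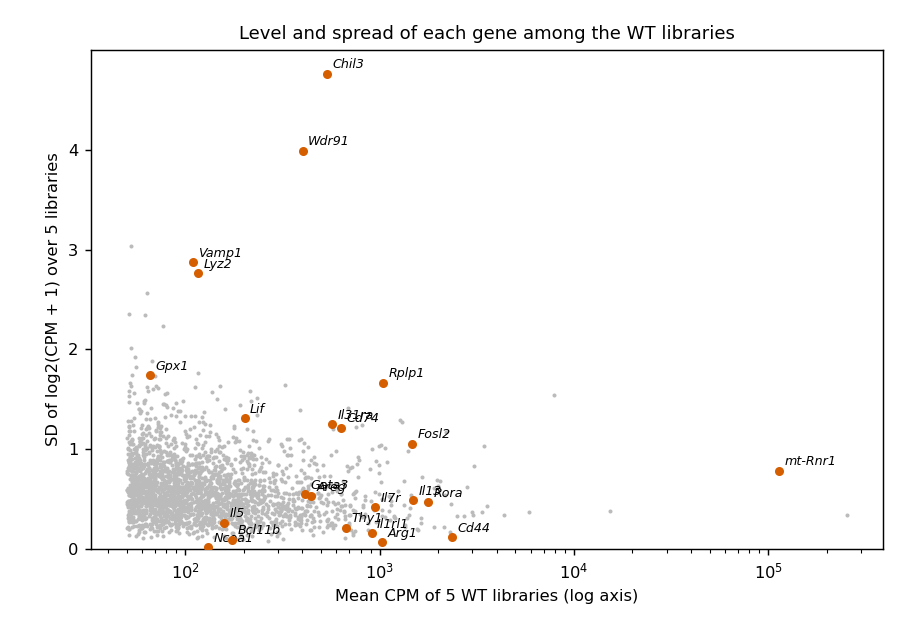
Mean CPM (log axis) against the SD of log2(CPM + 1) over the 5 WT libraries, for genes of mean 50 CPM or more, with named genes in orange. Chil3 and Wdr91 lie far above the cloud, and Arg1, Cd44 and Ncoa1 lie at its lower edge.

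Chil3, encoding the chitinase-like protein Ym1, was the most variable gene by the SD of log2(CPM + 1). By coefficient of variation and by edgeR dispersion Wdr91 came first. Chil3 stood at 0.807, 237, 261, 2174 and 0.334 CPM in libraries 1 to 5. Lyz2, encoding lysozyme, stood at 33.9, 85.8, 47.2, 417 and 1.15 CPM. Both are prominent in lung macrophages, and library 4 held the top level of both. In that library Ctss, encoding cathepsin S, reached 322 CPM against 37.0 to 154 CPM elsewhere. Cd68 reached 45.2 CPM and Mertk 18.8 CPM there, against at most 23.0 and 0.253 CPM in the others. Other macrophage markers stayed near 0 in library 4: Siglecf stood at 0.299 CPM, Adgre1 at 1.98 CPM, and Marco, Fabp4 and C1qa had no count. The summed level of the 19 measured macrophage and monocyte markers was 3247 CPM in library 4 and 458 to 743 CPM in the others, where Ccr2, an ILC2 receptor also on that list, supplied 228 to 399.8 CPM. The part of macrophage RNA in the levels of Chil3 and Lyz2 was not tested.

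Some other variable genes were high in a single library, and whether related genes rose with them was not tested. Wdr91, encoding an endosomal protein, stood at 1957 CPM in library 3 and at 0.202 to 24.2 CPM elsewhere. Vamp1, encoding a vesicle protein, stood at 491 CPM in library 1 and at 2.99 to 37.3 CPM elsewhere. Others were low in a single library. Arhgap9, encoding a GTPase-activating protein, had 0.504 CPM in library 1 and 51.8 to 94.2 CPM in the rest. Unc119b had 1.16 CPM in library 1 and 41.2 to 172 CPM in the rest, and Sema5a 2.19 CPM in library 2 and 45.9 to 164 CPM in the rest. Cntnap2, by contrast, was at or under 0.961 CPM in libraries 3 and 4 and at 58.9 to 126 CPM in the others.

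**Figure D4:**
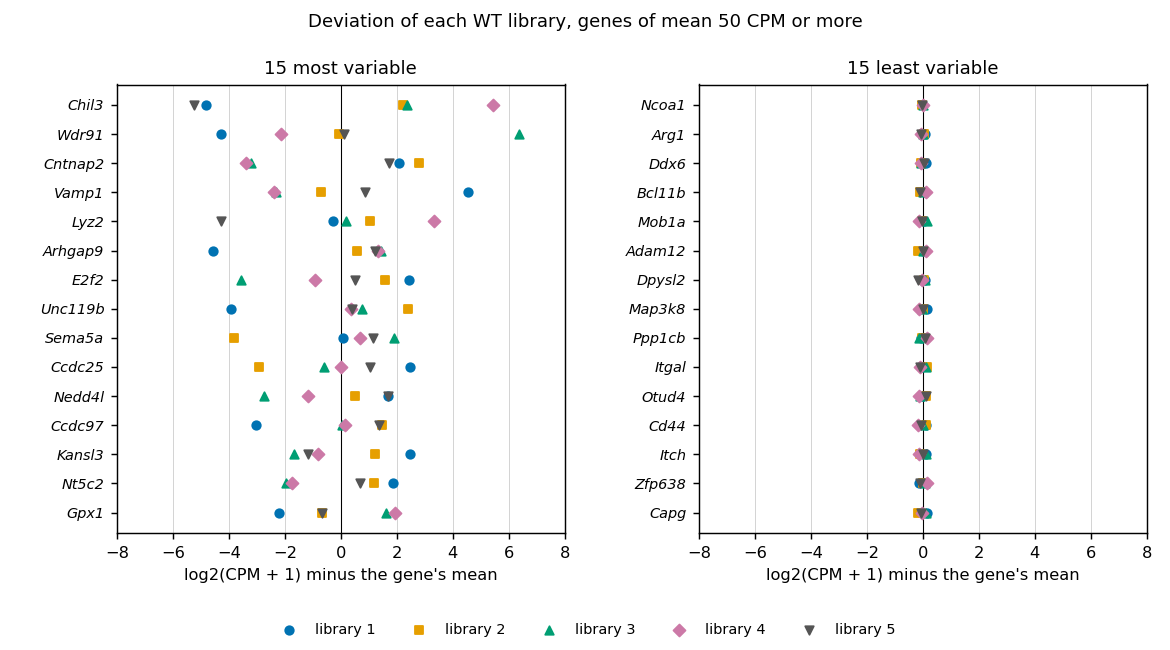
Deviation of each WT library from the gene's mean, as log2(CPM + 1), for the 15 most and the 15 least variable genes of mean 50 CPM or more, 1 symbol per library. The left panel spans several log2 units, with Chil3 between libraries 4 (2174 CPM) and 5 (0.334 CPM), and the right panel is on the same axis.

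Of genes with a mean of 20 CPM or more, 16 had 3 or fewer counts in at least 1 library. Of the 16, 10 were lost from library 1, which also had the fewest genes detected. Without library 1 the count was 4. Reaching that mean itself takes reads, which keeps these counts low. Over all genes, 8987 to 11284 had more than 3 counts in a given library, but 7630 had them in every library. Oasl2, a 2′-5′ oligoadenylate synthetase-like gene named after its values were seen, was present in library 1 only. It had 112 CPM there and at most 0.0506 CPM in each of the other 4, so it reached the mean through library 1. Plcd4, also named afterwards, was missing from libraries 2, 4 and 5. Fbxw5 and Shmt2, also named afterwards, had 0 counts in library 1 and 9.79 to 84.2 CPM in the others.

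At the other end, 150 of 2407 genes (6.23%) had their highest library within 1.5-fold of the lowest. Leaving out any 1 library, which narrows the range, gave 255 to 384. Dtx3l, at 1.497-fold, lay just inside that limit, and Cblb lay on it. Receptors contributed 10 of 70, among them Cd44 (1.21-fold), Itgal (1.18-fold), Il1rl1 (1.28-fold) and Thy1 (1.47-fold), transcription factors 5 of 104 and secreted factors 1 of 14, Tnfsf8. The least variable gene by the SD of log2(CPM + 1) was Ncoa1, a nuclear receptor coactivator, at 129 to 133 CPM. Arg1 followed, with a mean of 1030 ± 50.9 CPM, and then Ddx6, an RNA helicase of processing bodies, at 256 to 291 CPM. Bcl11b, a factor needed to keep ILC2 identity, stood at 184, 161, 176, 187 and 164 CPM. Others of the lowest spread were Mob1a, Adam12, Dpysl2, Map3k8 and Itch, the last an E3 ubiquitin ligase of lymphocyte activation.

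This part of the description leans on the scale. With library size alone 136 genes were within 1.5-fold, but only 60 of them were among the 150, and none of the 15 least variable genes was the same. Of the genes just named, Cd44 spanned 1.25-fold, Arg1 1.27-fold and Ncoa1 1.37-fold on that scale, and Il1rl1, at 1.60-fold, and Thy1, at 1.55-fold, passed the limit. The strongly variable genes depended less on it: 82 of the 103, and 11 of the 15 most variable, were shared.

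Markers of other cells were mostly near 0. Of the granulocyte, epithelial, fibroblast, red cell and platelet, and ILC3 lists, no measured gene had a mean of 20 CPM or more. Ncr1 and Eomes (NK cells), Mcpt8 (basophils), Sftpc (alveolar epithelium), Cdh5 (endothelium) and Col1a1 (fibroblasts) had 0 counts in all 5 libraries. Summed CPM over libraries were 3.74 to 16.7 for granulocyte, 5.86 to 46.2 for epithelial and 1.19 to 68.8 for fibroblast markers, with the last 2 highest in library 4. There a single gene supplied most of each sum, Cdh1 (32.33 CPM) of the epithelial and Fn1 (60.85 CPM) of the fibroblast list. ILC2 identity genes summed to 8930 to 13960 CPM. In bulk RNA, fewer cells of a type and less RNA per cell cannot be told apart.

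Several lists were above that. T cell markers had 5 of 14 measured genes (35.7%, against 22.4%) at 20 CPM or more and summed to 313 to 537 CPM. Most reads were in the T cell receptor β constant gene Trbc2, at 104 to 276 CPM, Cd28, at 18.5 to 172 CPM, the other β constant gene Trbc1, at 67.8 to 87.2 CPM, and Cd3g. Of the defining T cell genes, Cd3g reached 102 and 115 CPM in libraries 3 and 4 and 7.51 to 18.3 CPM in the others, while Cd3e averaged 8.06 CPM, Trac 2.90 CPM and Cd3d 1.77 CPM, and Cd4 and Cd8a had no count. Dendritic cell markers summed to 505 to 1451 CPM, with the largest part from Cd74, the MHC class II invariant chain, at 1127, 868, 182, 220.2 and 779 CPM. The class II genes H2-Aa and H2-Ab1 averaged 122 ± 52.9 and 108 ± 16.9 CPM, while Flt3 held 2 counts in all. Mast cell and basophil markers summed to 218 to 428 CPM, nearly all of it Kit, and Cpa3 averaged 6.26 CPM with Fcer1a at 0. Endothelial markers summed to 42.4 to 162 CPM, nearly all of it Pecam1, which leukocytes also carry. B cell markers summed to 31.1 to 149 CPM, most of it Ighm, at 19.7 to 149 CPM. NK and ILC1 markers summed to 18.4 to 132 CPM, and Ccl5, the chief of them, stood at 12.0, 38.3, 77.6, 97.3 and 13.9 CPM.

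**Figure D5:**
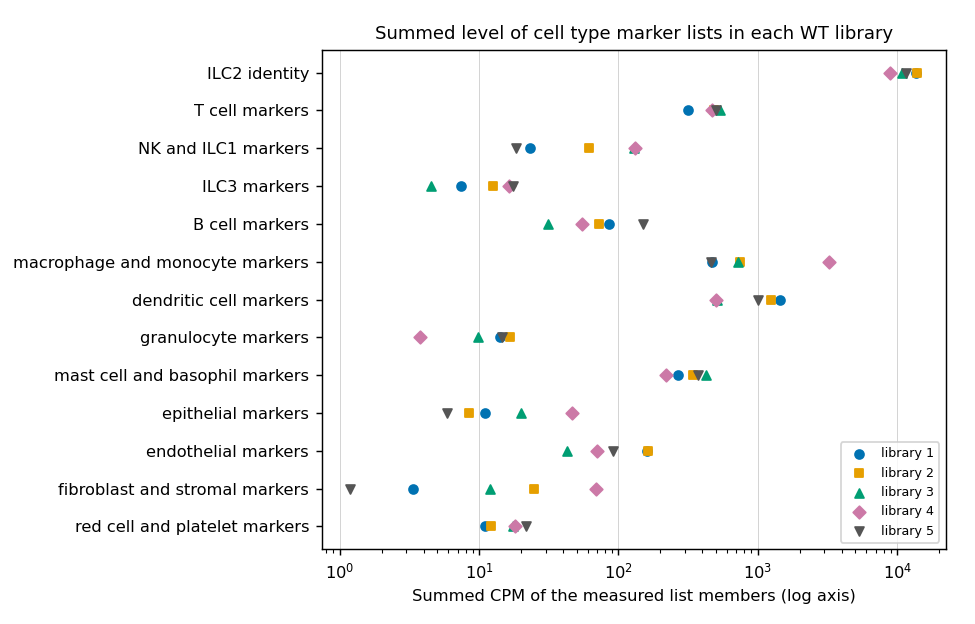
Summed CPM (log axis) of the measured genes of each cell type marker list, 1 symbol per WT library. ILC2 identity genes sum to 8930 to 13960 CPM, and library 4 stands to the right of the others for macrophage and monocyte markers, at 3247 CPM.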

How the data were processed

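The authors deposited 1 table of raw counts, as whole numbers for each gene and library. STAR 2.6.0c, SAMtools 1.8, HTSeq 0.9.1 and the build GRCm38 are named in the submitters' processing notes, and the labels' protocols name a stranded total RNA kit. Which annotation release, strand setting and filters were used is not given in the sources used here. Of 54838 gene identifiers, 54809 matched GENCODE M21, which gave positions, exon lengths and overlaps. Counts of the 5 WT libraries were scaled by TMM (edgeR 4.0.16, R 4.3.3) and summarised in Python 3.11.15. Spread is the SD of log2(CPM + 1). The step that finds variable genes was tried on simulated counts. Their spread was set lower than that of the named genes here, so that trial does not give its error rate in these data. Groups come from the genotype labels. Genes were named by rule: the markers, the 15 largest shares, the 15 highest per kb, the 20, 25 and 15 highest factors, receptors and cytokines, the 15 most and least variable, up to 4 leaders of each other list, and canonical ILC2 genes. Other names are said to follow the values, or illustrate a list's count. The genes and lists were chosen with earlier results of these data known. A few named genes are not reported here.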

Additional observations from a re-analysis of the deposited data

Results flagged for a closer look

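Of 192 values checked, 13 had a library whose gap to its nearest neighbour was an unusually large part of the range over the 5 libraries on the log2(CPM + 1) scale (over 0.71, the 95% critical value of Dixon's ratio). Chance flags about 1 in 20 of unselected, normally distributed values. Some of these genes were named for their spread in these data and others had counts in 1 library only. The 13 of 192 are therefore not set against that rate. Among abundant genes the flags were Il13, lowest in library 4 (ratio 0.757), Gphn, highest in library 3 (0.778), Areg, lowest in library 1 (0.876), and Arhgap9, lowest in library 1 (0.858). The others were genes near 0 with counts mainly in 1 library. Il9 (0.872), Ighd (0.951) and Il5ra (1.0) were highest in library 1, and Gzma (0.95) in library 2. Jchain (1.0) and Ednrb (1.0) were highest in library 3, S100a8 (1.0) and Vwf (0.964) in library 4, and Cd200r3 (0.713) in library 5.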

How the results depend on the processing

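No paired analysis was possible because only 1 group is described and the library numbers, given in deposit order, pair nothing. The share of counts in the 10 most abundant genes, 41.6% on average, was 8.15% without mitochondrially encoded genes and 5.80% among nuclear coding genes. Secreted mediators numbered 15, not 23, where 20 CPM was required in every library. The 103 strongly variable genes, of 2407, became 546 at a minimum mean of 20 CPM, which 4522 genes reached with overlapped genes included. Strong variation was thus more frequent when genes of lower level were let in. The count was 29 at 100 CPM and 67 among genes free of overlap, each from fewer genes, whose number is not given here. The 16 genes missing from a library became 8 with 1 count as presence and 30 with 10 counts. Leaving out each library in turn gave 42 (without library 1) to 92 strongly variable genes, 4 (without library 1) to 21 missing genes and 255 to 384 steady genes. A range over 4 libraries cannot exceed that over 5, which bears on the first and last of these, but TMM factors were also refitted. The other counts stayed within 1.5 times: 124 to 128 factors, 83 to 86 receptors, 22 to 23 secreted mediators with 7679 to 8481 genes detected in every WT library and 40.2 to 43.1% of counts in the 10 most abundant genes. With RLE factors in place of TMM, 101 of the 103 strongly variable and 137 of the 150 steady genes were shared. Which genes lead a ranking depended on the length used: of the 20 factors, 14 were shared between the order by CPM and that per kb of exon, of the 25 receptors 18 and of the 15 cytokines 11. Per kb of the longest transcript 15, 19 and 10 were shared with the order by CPM, and per kb of genomic span 9, 16 and 9. Bhlhe40 was the first factor by each length, but the second was Nr4a3 per kb of exon, Nfkb1 per kb of longest transcript and Fosb per kb of span. Of the 15 most variable genes 5 were shared with an order by coefficient of variation and 12 with one by edgeR dispersion, and of the 15 least variable 14 and 2. The choices of exons outside other genes, of the genes shared between scalings, and of the split at 2 kb of exon without the ribosomal protein list, were made after seeing the data.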
